A study of Mus musculus with 4 samples.

Results

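The 40 genes described here are mouse imprinted genes, taken by symbol from a list that leaves out the insulin-like growth factor genes. Of these, 36 matched a row among the 21993 genes of each library. The non-coding RNAs H19, Meg3, Kcnq1ot1 and Airn matched none and are not analysed here. The libraries are of uterine cells sorted by flow cytometry as NK cells, negative for CD3 and positive for CD45 and NK1.1, from female mice mated with B6 males and taken at gd11.5 (gd, gestational day). Ncr1Cre mice carry Cre recombinase driven from Ncr1, a gene active in NK cells and related innate lymphoid cells (n = 2 libraries). Control mice lack Cre (n = 2). The strain of the females is not given, and no label says that replicate libraries are of different mice, so the p-values rest on a spread that may be technical. The comparison asks which imprinted genes differ between the genotypes, and whether genes expressed from the paternal and from the maternal allele differ alike.

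An imprinted gene is transcribed mainly from the copy inherited from one parent, because DNA methylation laid down in the egg or sperm marks that copy. Many imprinted genes sit in clusters under one control region, act in fetal growth and placental development, and are also expressed in adult stroma, muscle, endocrine tissue and brain. By textbook assignment, 20 members are expressed from the paternal copy and 17 from the maternal copy, while Grb10, Gnas and Ddc depend on tissue or transcript. For 8 of the 17 maternally expressed members imprinting is found in most embryonic tissues, and for the other 9 mainly in placenta or brain. The values sum both alleles, so they show the level of a gene and not which copy was used.

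Levels are FPKM, fragments counted per length of transcript and per depth of library. The whole-fragment steps of low values gave implied totals of 20960000 to 38470000 fragments per library, at which 1 fragment on 1 kb is worth 0.026 to 0.0477 FPKM. Ncr1 and Klrb1c, genes that define NK cells, were low. Ncr1 was listed at 0 to 0.36 FPKM over the 4 libraries and Klrb1c, which encodes NK1.1, at 0.45 to 0.97. The highest NK-cell markers were Il2rb at 6.50 to 9.17 and Gzmb at 5.03 to 9.39. In the same libraries the stromal collagen gene Col1a1 stood at 4459 to 8359. Marker genes of several other cell types differed between the genotypes. Decidual stroma markers were lower for 12 of 14 tested (list summed 14040 to 14217 FPKM in Ncr1Cre and 31589 to 31648 in control). With 1 higher, the exception was the prolactin-family gene Prl8a2, at 21.9 and 24.7 FPKM in Ncr1Cre and 3.35 and 4.12 in control. Smooth-muscle markers were lower for 8 of 8 (215 to 222 and 595 to 607). Des is in both of these lists and is the highest gene of the smooth-muscle sum, at 143 to 144 and 245 to 254. Epithelial markers were higher for 11 of 12 (1074 to 1109 and 323 to 334), trophoblast markers for 10 of 13 with 0 lower (1339 to 1540 and 527 to 583), yolk sac endoderm markers for 6 of 7 with 1 lower (102 to 104 and 48.3 to 51.9), erythroid markers for 5 of 5 (671 to 789 and 69.4 to 77.7) and macrophage markers for 7 of 7 (96.3 to 97.6 and 28.2 to 30.2). NK-cell markers were higher for 4 of 6 (42.9 to 43.0 and 28.7 to 28.9), T-cell markers summed to 2.57 to 2.84 and 2.02 to 2.07 with 0 of 1 called, and endothelial markers were higher for 2 and lower for 2 of 6 (37.3 to 39.0 and 29.4 to 30.9). The trophoblast markers Gcm1 and Synb were listed at 0 in all 4 libraries. In bulk libraries of this kind fewer cells of a type and less RNA per cell cannot be told apart.

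Promoter sequences show how differently these genes start. RefSeq (build GRCm38.p6) gave 48 windows of 250 bases before a start for 32 of the 40 members. The windows of members held a median of 10 CG dinucleotides, the site of DNA methylation, where all 32851 RefSeq windows held a median of 6. The hexamer TGCCGC, searched on both strands and known as the motif bound by the imprint-maintenance factor ZFP57 when its CG is methylated, was in 9 of the 48 windows (18.8%) and in 8.68% of all windows. The hexamer itself holds a CG, and these shares were not matched for the number of CG dinucleotides. Windows of one gene can overlap, as windows of Mest with the hexamer do, and a match of letters is no evidence of binding. The sequences below are those of members whose level differed between genotypes or that bear on a neighbouring pair, each read 5′ to 3′ on its gene's strand with CG in capitals.

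The Dlk1 window (chr12:109452573-109452822, plus strand) belongs to a member with one of the largest rises and held 8 CG dinucleotides. The Phlda2 window (chr7:143502525-143502774, minus strand) and the Cd81 window (chr7:143052500-143052749, plus strand) belong to maternally expressed genes of one domain that moved in opposite directions, and they held 21 and 16. The Phlda2 window also held TATAAA, the core letters of a classical promoter element, found in 12.4% of all windows when both strands were searched.
Dlk1: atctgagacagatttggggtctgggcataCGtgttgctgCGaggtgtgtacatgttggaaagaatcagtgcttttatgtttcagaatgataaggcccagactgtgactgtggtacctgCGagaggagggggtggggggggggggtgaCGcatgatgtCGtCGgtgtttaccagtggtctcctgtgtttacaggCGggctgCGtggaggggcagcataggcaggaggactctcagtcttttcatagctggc
Phlda2: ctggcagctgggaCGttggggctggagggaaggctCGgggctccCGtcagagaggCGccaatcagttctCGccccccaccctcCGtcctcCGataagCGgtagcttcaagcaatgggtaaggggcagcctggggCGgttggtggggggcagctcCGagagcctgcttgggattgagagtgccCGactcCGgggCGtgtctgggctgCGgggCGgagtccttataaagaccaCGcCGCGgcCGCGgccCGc
Cd81: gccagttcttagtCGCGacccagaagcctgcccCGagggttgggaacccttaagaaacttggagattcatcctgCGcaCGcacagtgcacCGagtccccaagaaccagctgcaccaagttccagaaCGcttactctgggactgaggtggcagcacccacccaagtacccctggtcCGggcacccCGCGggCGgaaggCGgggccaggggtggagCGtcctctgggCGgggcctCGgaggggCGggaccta

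Grb10, which fell, has starts of both kinds. The window of the upstream start (chr11:12037421-12037670, minus strand) held 40 CG dinucleotides, and 98.7% of all RefSeq windows held fewer. The window of the downstream start (chr11:12027972-12028221, minus strand) held 8. The files give 1 value per gene, so they do not tell which start was used.
Grb10 upstream start: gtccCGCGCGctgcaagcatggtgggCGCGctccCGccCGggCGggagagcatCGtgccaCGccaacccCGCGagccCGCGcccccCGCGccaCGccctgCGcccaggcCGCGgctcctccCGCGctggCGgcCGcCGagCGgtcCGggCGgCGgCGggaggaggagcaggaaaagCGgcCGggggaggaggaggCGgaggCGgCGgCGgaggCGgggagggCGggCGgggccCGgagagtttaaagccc
Grb10 downstream start: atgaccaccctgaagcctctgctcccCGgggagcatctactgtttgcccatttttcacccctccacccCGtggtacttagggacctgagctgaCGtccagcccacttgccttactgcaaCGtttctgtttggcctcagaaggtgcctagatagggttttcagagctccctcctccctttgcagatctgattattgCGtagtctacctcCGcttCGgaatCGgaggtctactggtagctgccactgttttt

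Peg3 and Usp29 are paternally expressed neighbours that start back to back on opposite strands, with 163 bases between the starts (chr7:6730420-6730582, printed on the minus strand, the strand of Peg3), which held 5 CG dinucleotides. Peg3 was measured at 2.32 to 4.82 FPKM, whereas Usp29 was listed at 0 in all 4 libraries.
Peg3 to Usp29: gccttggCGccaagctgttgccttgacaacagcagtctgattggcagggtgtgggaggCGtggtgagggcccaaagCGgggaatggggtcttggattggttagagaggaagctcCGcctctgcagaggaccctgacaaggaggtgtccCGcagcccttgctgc

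Mest, whose level did not pass the test, is shown as a member with 2 copies of the ZFP57 hexamer (chr6:30737803-30738052, plus strand), here in capitals as TGCCGC or its reverse complement. None of the other windows printed above held this hexamer.
Mest: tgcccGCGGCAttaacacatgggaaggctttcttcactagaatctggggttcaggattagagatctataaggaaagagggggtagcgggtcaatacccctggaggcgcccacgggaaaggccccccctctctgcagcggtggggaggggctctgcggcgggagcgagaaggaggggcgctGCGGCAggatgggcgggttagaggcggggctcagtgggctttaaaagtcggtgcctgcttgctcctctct

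Of the 22 members with a mean of at least 1 FPKM, which were tested, 6 were higher in Ncr1Cre, 5 were lower and 11 did not pass the test at an adjusted p under 0.05. Dlk1, Cdkn1c, Kcnq1, Peg10, Peg3 and Phlda2 were higher, and Grb10, Sgce, Cd81, Ndn and Osbpl5 were lower. Over all 11762 genes tested 48.5% were called by the same rule, 30.9% higher and 17.6% lower, and the 11 of 22 members called lie near that background. The split over all genes depended on scaling, with 63.7% of calls higher on the values as deposited, 46.2% after rescaling to a common median and 46.3% after quantile normalization. For the members the split was 6 and 6 after rescaling and 5 and 5 after quantile normalization. The median log2 fold change was 0.0056 over the tested members and 0.11 over all genes tested, and median rescaling moved the latter to -0.05. Each difference is given as Ncr1Cre minus control after taking log2(FPKM + 1), which makes changes of low genes look smaller. By a rule of size (means at least 2-fold apart on this scale and no overlap), 3 members were higher (Dlk1, Cdkn1c and Kcnq1) and 0 lower, where 9.81% of all genes tested were higher and 2.7% lower.

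Paternally and maternally expressed members gave the same counts on the values as deposited. Of 10 tested paternally expressed genes 3 were higher and 2 lower, and of 10 tested maternally expressed genes 3 were higher and 2 lower. Median rescaling added a maternally expressed gene called lower, Nap1l4 (adjusted p = 0.0496). Quantile normalization dropped the maternally expressed Phlda2 (adjusted p = 0.0631). No call of a paternally expressed gene changed under either, so the counts were then no longer equal. The median log2 fold changes were 0.031 and -0.046, against 0.11 for all genes tested. On the log2(FPKM + 1) scale both lists ranged from about the same fall (-0.73 and -0.72) to the same rise (1.46 and 1.46). That scale makes changes of low genes look smaller, and by the fold between means the largest rises differed. They were 6.50-fold for the paternally expressed Dlk1 and 3.51-fold for the maternally expressed Kcnq1. Without overlap between the genotypes were 6 of 10 in each list, where 76.2% of all genes tested did not overlap.

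**Figure D1:**
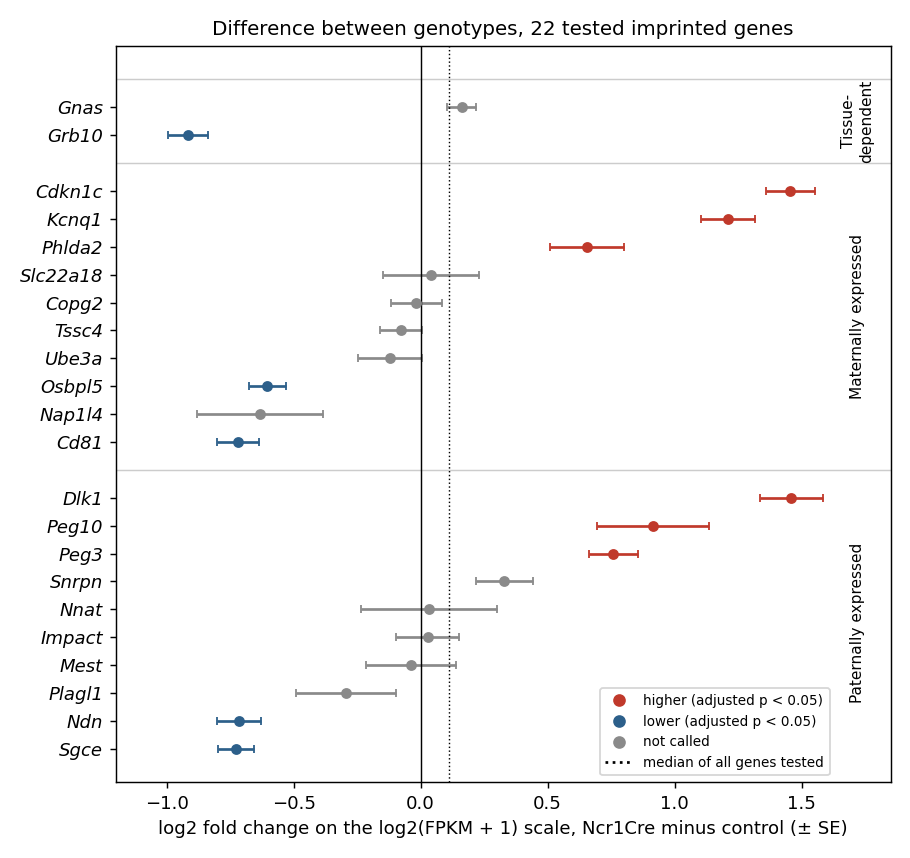
Log2 fold change (Ncr1Cre minus control, on the log2(FPKM + 1) scale) with its standard error for the 22 tested imprinted genes, grouped by the expressed allele and coloured by the call. Genes that rose and genes that fell stand in both parental classes, between -0.92 for Grb10 and 1.46 for Dlk1, and the dotted line marks the median of all genes tested, 0.11.

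Dlk1, the tested signaling gene of the paternal class, and the maternally expressed Cdkn1c had the largest rises among the tested members on the log2(FPKM + 1) scale. By the fold between means, Kcnq1 (3.51-fold) rose more than Cdkn1c (2.91-fold). Dlk1, a membrane protein related to Notch ligands that holds progenitor cells back from differentiating, had levels of 3.17 and 2.88 FPKM in Ncr1Cre and 0.37 and 0.56 in control. Both Ncr1Cre libraries lay above both control libraries, and the means differed 6.50-fold (log2 fold change 1.46, SE 0.12, adjusted p = 0.00087). The other measured genes of its cluster on chromosome 12 were below the filter. Rtl1, a placental gene derived from a retrotransposon, was at 0.42 and 0.58 in Ncr1Cre and at 0.095 and 0.12 in control, and Dio3, which inactivates thyroid hormone, at 1.23 and 0.64 and at 0.56 and 0.47. Neither overlapped between the genotypes. Both have antisense partners, and the use of strand in counting is not given, so their values are uncertain.

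Transcription factors of the paternal class did not move together. Peg3, a zinc finger protein known for its part in maternal care and fetal growth, was at 4.82 and 4.57 FPKM in Ncr1Cre and at 2.32 and 2.42 in control (log2 fold change 0.76, SE 0.097, adjusted p = 0.0031). The libraries of a genotype lay close together and the genotypes did not overlap. Plagl1, a zinc finger protein that regulates other imprinted genes, was at 8.92 and 12.8 in Ncr1Cre and at 11.9 and 15 in control. These ranges overlapped and the gene was not called (log2 fold change -0.29, SE 0.20, adjusted p = 0.268), but the adjusted p was 0.0436 without Ncr1Cre replicate 2 (0.0436 to 0.809 over the alternatives).

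Peg10 and Sgce, neighbours that start back to back on chromosome 6, moved in opposite directions. Peg10, a retrotransposon-derived gene needed for placental formation, was at 4.53 and 7.53 FPKM in Ncr1Cre and at 2.52 and 2.78 in control (log2 fold change 0.91, SE 0.22, adjusted p = 0.0225). The Ncr1Cre libraries were both higher but far apart, and the call was lost without control replicate 1 (adjusted p = 0.0841), without control replicate 2 (0.0642) and with no filter (0.154), within a range of 0.00153 to 0.154 over the alternatives. Sgce, which encodes epsilon-sarcoglycan of the muscle membrane complex, was at 21.1 and 22.1 in Ncr1Cre and at 36.2 and 36.5 in control (log2 fold change -0.73, SE 0.070, adjusted p = 0.0013). It was called under every alternative fit.

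Genes of the Prader-Willi and Angelman region on chromosome 7 differed one by one. Ndn, which encodes the MAGE-family protein necdin, known to restrain proliferation, was at 15.2 and 17.1 FPKM in Ncr1Cre and at 26.8 and 27.6 in control (log2 fold change -0.72, SE 0.087, adjusted p = 0.0026). Its neighbour Magel2, of the same family, was far below the filter, at 0.18 and 0.15 in Ncr1Cre and at 0.011 and 0 in control. The implied fragments of Magel2 were 21.7 and 15.9 in Ncr1Cre and 1.99 and 0 in control, so no fold is given. Snrpn, which encodes a splicing protein, was at 2.97 and 3.45 and at 2.25 and 2.45, without overlap and without a call (adjusted p = 0.0635). Ube3a, the maternally expressed ubiquitin ligase of the region, imprinted in neurons, was at 2.31 and 2.75 and at 2.61 and 3.07 and was not called (adjusted p = 0.463). Peg12 and Mkrn3 were below the filter.

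Of the remaining tested genes of the paternal class none was called. Mest, an enzyme of the hydrolase family, was at 1.06 and 1.83 FPKM in Ncr1Cre and at 1.49 and 1.48 in control. Nnat, a small membrane proteolipid, was at 1.95 and 0.92 and at 0.97 and 1.75. Impact, a regulator of the kinase GCN2, was at 5.81 and 7.12 and at 5.97 and 6.63. The genotypes overlapped for each, and for all of them the libraries of 1 genotype differed more than the genotype means did. A missed threshold does not show that the levels were alike.

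**Figure D2:**
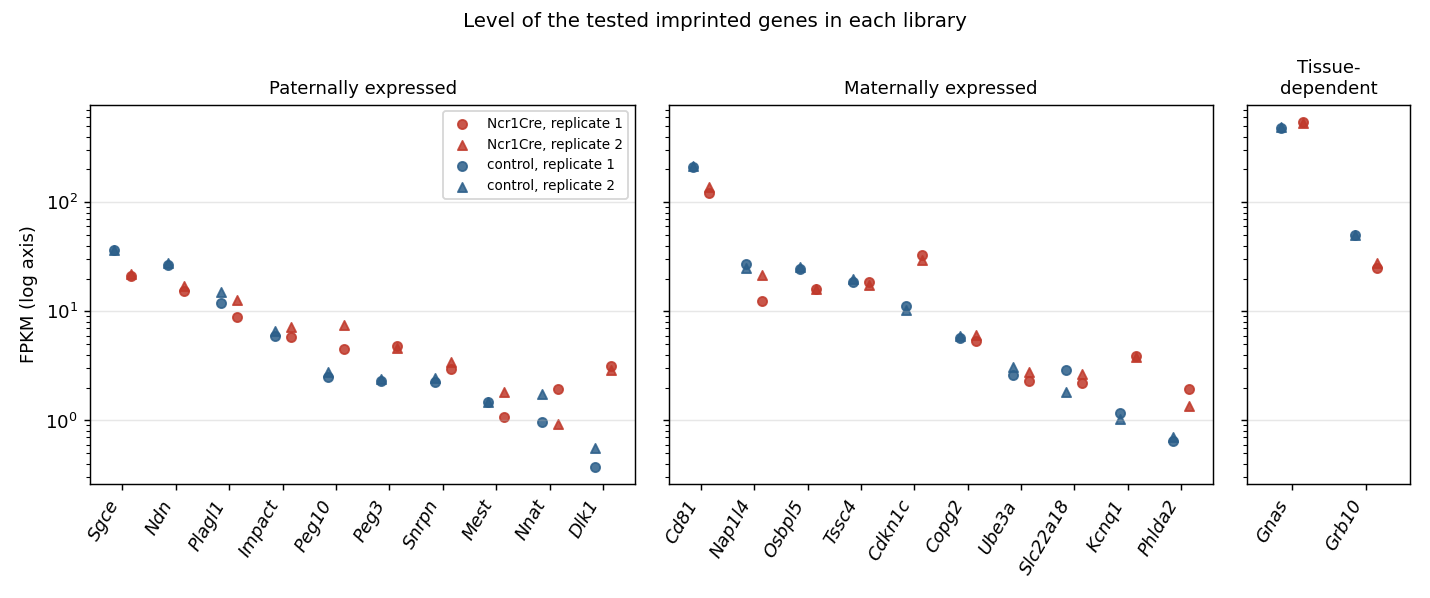
FPKM on a log axis in each of the 4 libraries for the 22 tested imprinted genes, ordered within each class by the control mean (red, Ncr1Cre; blue, control; circles, replicate 1; triangles, replicate 2). Gnas stood highest at 478 to 545 FPKM and Cd81 next at 121 to 217, and the pairs of points part without overlap for 14 of the 22 genes.

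Maternally expressed genes of the Kcnq1 domain on chromosome 7 moved in both directions. Of its 10 members 8 were tested, with 3 higher, 2 lower and 3 not called. Cdkn1c, which encodes the cyclin-dependent kinase inhibitor p57 and restrains growth, was at 33 and 29.3 FPKM in Ncr1Cre and at 11.2 and 10.3 in control. The genotypes were well apart, with means 2.91-fold different (log2 fold change 1.46, SE 0.096, adjusted p = 0.00046). Phlda2, which limits placental growth, was at 1.94 and 1.36 and at 0.65 and 0.70 (log2 fold change 0.66, SE 0.15, adjusted p = 0.0176). Its call was lost without control replicate 1 (adjusted p = 0.0724), without control replicate 2 (0.0594), under quantile normalization (0.0631) and with no filter (0.0907), over a range of 0.00902 to 0.0907. Kcnq1, a voltage-gated potassium channel, was at 3.89 and 3.82 and at 1.17 and 1.02 (log2 fold change 1.21, SE 0.10, adjusted p = 0.00096). The non-coding Kcnq1ot1 lies antisense within Kcnq1, so reads of the pair cannot be told apart without strand.

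Cd81 and Osbpl5, towards the ends of the domain, were lower. Cd81, a tetraspanin of many cell types, was at 121 and 139 FPKM in Ncr1Cre and at 211 and 217 in control (log2 fold change -0.72, SE 0.084, adjusted p = 0.0024). Osbpl5, a lipid-transfer protein, was at 15.9 and 16 and at 24.3 and 25.3 (log2 fold change -0.60, SE 0.073, adjusted p = 0.0026). Both were called under every alternative fit. Nap1l4, a histone chaperone next to Phlda2, was at 12.6 and 21.8 in Ncr1Cre and at 27.4 and 25.2 in control, and its spread between the Ncr1Cre libraries left it without a call (log2 fold change -0.63, SE 0.25, adjusted p = 0.0909). Without Ncr1Cre replicate 2 its adjusted p was 0.00173 and the log2 fold change -1.01, without Ncr1Cre replicate 1 they were 0.126 and -0.26, and after median rescaling the adjusted p was 0.0496 (0.00173 to 0.339 over the alternatives). Slc22a18, a transporter, was at 2.19 and 2.67 and at 2.92 and 1.83, and Tssc4 at 18.7 and 17.5 and at 18.4 and 19.8, and neither was called.

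**Figure D3:**
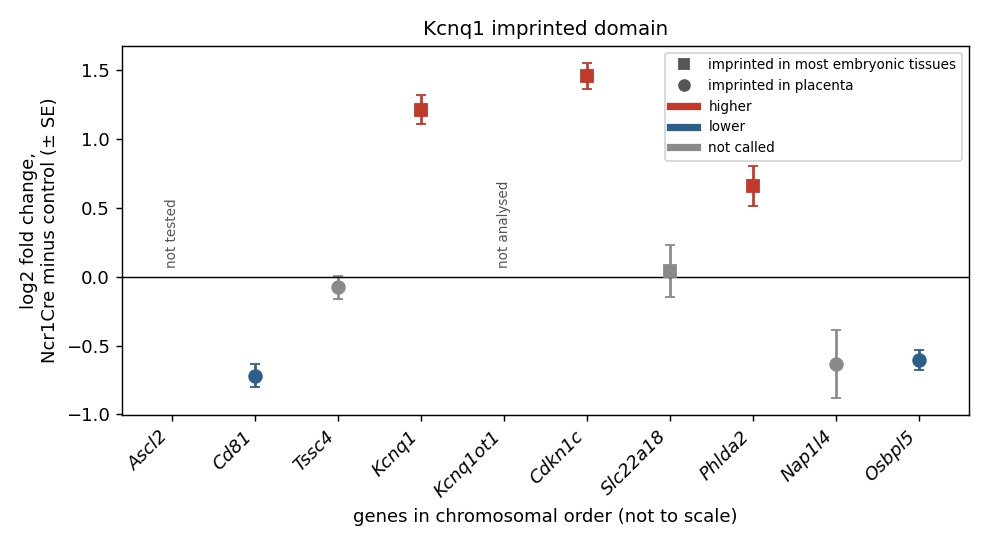
Log2 fold change with its standard error (Ncr1Cre minus control) for the Kcnq1 domain in chromosomal order, with squares for genes imprinted in most embryonic tissues and circles for genes imprinted in placenta. Kcnq1, Cdkn1c and Phlda2 in the middle rose by 0.66 to 1.46, and Cd81 and Osbpl5 towards the ends stood at -0.72 and -0.60. Slc22a18, between Cdkn1c and Phlda2, stood at 0.040, Tssc4, next to Cd81, at -0.076 and Nap1l4 at -0.63, and none was called. Ascl2, the outermost gene beside Cd81, was not tested.

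The maternally expressed members can also be read by how widely they are imprinted. Of the 4 tested that are imprinted in most embryonic tissues 3 were higher and 0 lower, with a median log2 fold change of 0.93, where 30.9% of all genes tested were higher and their median was 0.11. Of the 6 tested that are imprinted in placenta or brain 0 were higher and 2 lower, with a median of -0.36, where 17.6% of all genes tested were lower. The contrast between these groups was not tested, since the members were chosen with results known. The higher genes of the first group, Cdkn1c, Kcnq1 and Phlda2, all lie in the Kcnq1 domain. Of the second group Ascl2 and Ppp1r9a were below the filter and higher in both Ncr1Cre libraries, while Slc22a3, also below it, overlapped. Copg2, a coat protein gene that overlaps the Mest locus, belongs to the second group and was at 5.40 and 6.08 FPKM and at 5.66 and 5.97.

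Both genes whose active copy depends on tissue and that were tested encode signaling proteins. Grb10, an adaptor that dampens insulin and growth factor receptor signaling, was at 24.9 and 27.5 FPKM in Ncr1Cre and at 50.1 and 50.5 in control. The genotypes were far apart, with means 1.92-fold different (log2 fold change -0.92, SE 0.079, adjusted p = 0.00094), and the gene was called under every alternative fit. Gnas, which encodes the stimulatory G protein subunit and further transcripts with other imprints, was at 545 and 536 and at 478 and 488 without overlap but was not called (log2 fold change 0.16, SE 0.057, adjusted p = 0.0705). Its direction turned with scaling, to -0.0018 after median rescaling and -0.13 under quantile normalization. Ddc, a neighbour of Grb10 that makes dopamine and serotonin, was below the filter, at 0.25 and 0.40 and at 0.69 and 0.67, and was lower in both Ncr1Cre libraries.

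Summed over genes, both parental classes were lower in Ncr1Cre. The paternally expressed members summed to 72.6 and 82.6 FPKM in Ncr1Cre and to 93.3 and 99.6 in control, and the maternally expressed members to 219 and 242 and to 307 and 311. The genotypes did not overlap in either sum. The paternal sum rests largely on Sgce and Ndn, both lower, with means of 21.6 and 16.2 FPKM in Ncr1Cre and 36.4 and 27.2 in control. The ratio of the maternal to the paternal sum was 3.02 and 2.92 in Ncr1Cre and 3.29 and 3.13 in control. Cd81 alone made up 55.4% to 57.4% of the maternal sum in Ncr1Cre and 68.9% to 69.8% in control. Without Cd81 the maternal sum itself turned on the values as deposited, to 97.8 and 102.9 FPKM in Ncr1Cre and 95.6 and 94.2 in control. These did not overlap, but the difference was small (log2 ratio 0.081). All genes summed to 460108 and 468192 FPKM in Ncr1Cre and to 384852 and 396770 in control. Median rescaling moved the log2 ratio of the full maternal sum from -0.42 to -0.59. The sum without Cd81 was not rescaled, so its direction may depend on scaling. The order of the ratios turned as well, with values of 1.35 and 1.25 in Ncr1Cre and 1.02 and 0.946 in control. No gene was left out of the paternal sum for these ratios. With 2 libraries against 2 no two-sided exact test can go below p = 0.33, and none was made of these sums.

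The other 14 measured members had a mean below 1 FPKM and were not tested. Usp29 was listed at 0 throughout. Of the 13 above 0 in at least 1 library, 6 were higher and 3 lower in Ncr1Cre without overlap, where 48.6% of all such low genes did not overlap. Besides Rtl1, Dio3 and Magel2, the higher ones were Ascl2, Zim1 and Ppp1r9a. Ascl2, a transcription factor needed for the spongiotrophoblast of the placenta, was at 0.53 and 0.67 in Ncr1Cre and at 0.29 and 0.32 in control. Zim1, a zinc finger gene next to Peg3, was at 0.44 and 0.27 and at 0.25 and 0.16, and Ppp1r9a, which encodes the actin-binding protein neurabin, at 0.74 and 0.80 and at 0.63 and 0.50. Lower were Peg12, an inhibitor of the kinase GSK3 (0.82 and 0.46 in Ncr1Cre, 1.34 and 1.31 in control), Nap1l5, a histone chaperone relative (0.23 and 0.34, 0.36 and 0.45), and Ddc. Asb4, Mkrn3, Zdbf2 and Slc22a3 lay between 0.0074 and 0.20 FPKM in all libraries and overlapped. At the implied depth Mkrn3 rested on 2.90 to 11.9 fragments, too few to show a difference.

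**Figure D4:**
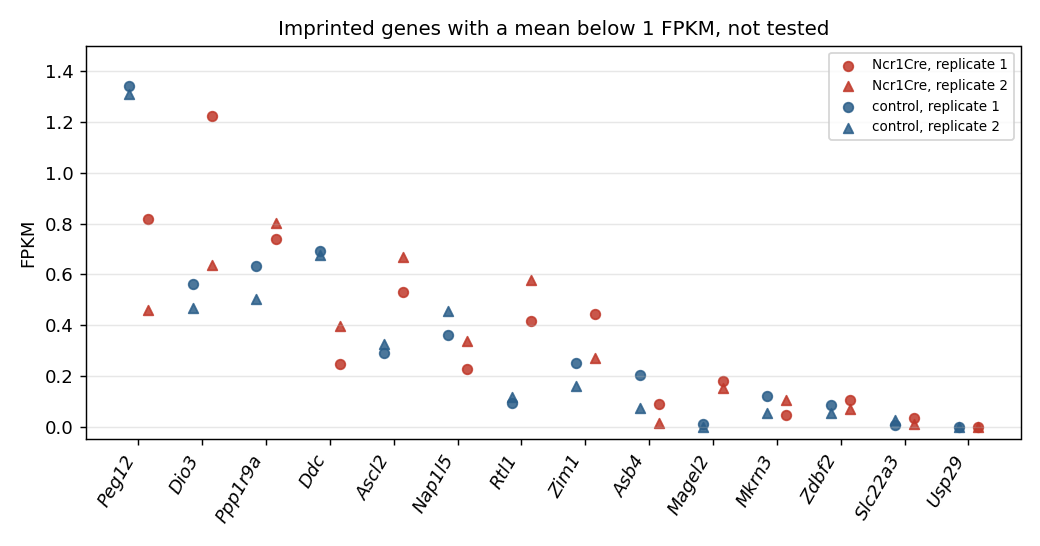
FPKM on a linear axis in each library for the 14 imprinted genes with a mean below 1 FPKM (colours and symbols as in the plot of levels by library). Peg12 and Ddc were higher in both control libraries and Rtl1, Ascl2 and Magel2 in both Ncr1Cre libraries, and Usp29 was listed at 0 in all 4.

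Markers of other cell types differed between the same libraries. Any gene higher in Ncr1Cre shares its direction with every other such gene, so a shared direction cannot show a link. The members that rose did so in the libraries in which most trophoblast, yolk sac endoderm, erythroid, epithelial, macrophage and NK-cell markers were higher. Tpbpa, a spongiotrophoblast gene, was at 452 and 517 FPKM against 143 and 167 in control. Afp, of yolk sac endoderm, was at 17.9 and 19.5 against 1.5 and 1.35. Trf, the yolk sac endoderm marker with the highest mean, was lower, at 22.4 and 22.7 against 30.7 and 32.4. The members that fell did so in the libraries in which most stroma and smooth-muscle markers were lower. The smooth-muscle marker with the highest mean was Des, at 144 and 143 against 254 and 245 (1.74-fold). Tagln, the next, was at 17.9 and 14.2 against 95.0 and 97.2. The part of these cell types in the members' differences was not tested.

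Of 26 genes that set or keep imprints 20 were tested, and 3 were higher (Zfp57, Tet2 and Uhrf1), 0 lower and 17 not called, beside 48.5% of all genes called, and their median log2 fold change was 0.16 against 0.11. Zfp57, which protects imprints from demethylation in the early embryo, was at 10.7 and 11.6 FPKM in Ncr1Cre and at 7.55 and 6.85 in control (log2 fold change 0.56, SE 0.096, adjusted p = 0.0076). Uhrf1, which brings DNA methyltransferase to replicating DNA, was at 3.20 and 2.65 and at 1.82 and 1.84, and Tet2, which oxidizes methylated cytosine, at 3.52 and 3.10 and at 1.97 and 1.87. The adjusted p was 0.0249 for Uhrf1 and 0.0114 for Tet2. The Tet2 call was lost without control replicate 2 (adjusted p = 0.0559) and with no filter (0.0591). Leaving out a library also ended the Uhrf1 call, at an adjusted p of 0.0913 without Ncr1Cre replicate 1, 0.0952 without control replicate 1 and 0.0886 without control replicate 2, as did testing with no filter (0.101). Under both rescalings, to the median or by quantiles, the counts were 2 higher and 1 lower. There Uhrf1 was not called (adjusted p = 0.0752 and 0.0808), and Dnmt3a, the de novo methyltransferase, at 2.91 and 2.18 against 4.82 and 3.42, was called lower (adjusted p = 0.025 and 0.03). Dnmt1, the maintenance methyltransferase, and Trim28, the corepressor that ZFP57 recruits, were not called, at 8.53 and 7.30 against 7.48 and 7.51 and at 45.9 and 46.2 against 45.6 and 44.8.

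Of 44 further imprinted genes outside the 40, 38 matched a row and 30 were tested, with 4 higher, 8 lower and 18 not called, and a median log2 fold change of -0.10. The 12 of 30 called lie near the 48.5% of all genes called. The 4 with the smallest adjusted p were Gatm, Smoc1, Htra3 and Dcn. Gatm, an enzyme of creatine synthesis, was at 35.0 and 33.8 FPKM in Ncr1Cre and at 3.09 and 2.50 in control (log2 fold change 3.23, SE 0.11, adjusted p = 0.000142). Smoc1, a matrix protein, was at 36.5 and 38.6 and at 87.5 and 86.8, Htra3, a protease of decidua and placenta, at 448 and 454 and at 918 and 878, and Dcn, the stromal proteoglycan decorin, at 1229 and 1320 and at 2827 and 3051. These 3 were lower in Ncr1Cre, as most decidual stroma markers were, and a link between them was not tested. Several genes of this list are imprinted in placenta alone.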

How the data were processed

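RNA of sorted cells was sequenced in 4 libraries. Per the submitters' processing notes, the authors used Cufflinks (no version stated) and build mm9, and they deposited FPKM values per gene. Which aligner and annotation they used, and how strand and multiply mapped reads were handled, is not given in the sources used here. Groups and replicate numbers come from the labels. The rest of the genotype, shared by both groups, is not reported here. For 27 genes whose symbol had become a date, the symbol was looked up by gene ID.

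Testing used log2(FPKM + 1) for genes averaging 1 FPKM or more, in limma 3.58.1 (R 4.3.3) with a variance trend. P-values are two-sided and Benjamini-Hochberg adjusted over the 11762 genes tested. The test was checked on simulated data. FPKM is no count, so no count test was run. Total fragments were estimated from low values of genes with 1 transcript, as the total that made the largest share whole within 0.02 fragments. A simple fraction of that total was taken where its share was similar. Only 27.9% to 33.9% of these values came out whole, so the totals are uncertain. An exact 0 can be a failed estimate. Sequences are from RefSeq on GRCm38.p6, a newer build than mm9. Members, classes and lists were chosen with earlier results of these data known. Every tested member is given with its values in all libraries. Further imprinted genes and regulators are given by the 4 smallest adjusted p among called genes. Dnmt3a, Dnmt1 and Trim28 were added after their values were seen. Marker genes are given by their level, apart from Ncr1, Klrb1c, Prl8a2, Gcm1, Synb and Afp. Alternatives were the pseudocount, the filter, rescaling, quantile normalization, a replicate block, a rule of size and leaving out each library.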

Additional observations from a re-analysis of the deposited data

How the results depend on the processing

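Of the 11 called members, 9 kept direction and call under every alternative fit that tested them, and Peg10 and Phlda2 lost the call as given above. No called member changed direction. Called members numbered 9 to 13 when 1 library was left out, a fit that takes a single library to be as variable as the other group. Where only genes averaging 5 FPKM or more were tested, 6 members were called, since fewer genes were tested, and 1 regulator of imprinting. These 6 were 1 higher (Cdkn1c) and 5 lower, since the other 5 members called higher average under 5 FPKM. A rule of size (means 2-fold apart on the log2(FPKM + 1) scale, no overlap) kept 3 members, Dlk1, Cdkn1c and Kcnq1, and 1471 of all genes against 5709, since it is stricter (12.5% of genes tested). The median of paternally expressed members was -0.51 at a mean of at least 5 FPKM (4 genes), -0.13 after median rescaling, -0.16 after quantile normalization and -0.036 to 0.18 with 1 library left out. That of maternally expressed members was -0.34, -0.21, -0.20 and -0.089 to 0.013 under the same, 0.0069 with no filter and 0.93 for genes imprinted in most embryonic tissues. The log2 ratio of sums, with alternatives chosen after seeing the data, was -0.31 for paternally and -0.42 for maternally expressed members, -0.48 and -0.59 after median rescaling, and 0.081 for maternally expressed members without Cd81. The sum without Cd81 was not rescaled. The cause was not tested. The replicate numbers are only numbers (correlation of replicate differences between the genotypes 0.16 over 11762 genes). With the replicate block 6004 genes, 13 members and 5 regulators of imprinting were called, Gnas (adjusted p = 0.0327) and Plagl1 (0.0483) among them. Depth limits genes below about 0.1 FPKM, which rest on a few fragments.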
